A study of Mus musculus with 36 samples.

Results

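The LIN28, IGF2BP and HMGA regulators and TRIM71 are proteins made in embryos, and most of them are largely lost from adult tissues. They were followed here in mouse heart from E10.5 to adult life. The members were every probe set whose gene symbol was Lin28a, Lin28b, Igf2bp1, Igf2bp2, Igf2bp3, Hmga1, Hmga2 or Trim71. They numbered 19 of 45101 probe sets and covered 7 of the 8 genes: Igf2bp3 had 6 probe sets, Igf2bp1 and Hmga2 had 4 each, Igf2bp2 had 2, and Lin28a, Lin28b and Trim71 had 1 each. Hmga1 was not analysed here. Hearts of outbred OF1 mice were profiled on Affymetrix Mouse430_2 arrays, 36 in all and 3 at each of 12 stages, with no genetic change and no treatment in any group. Embryos were taken daily, the earliest at E10.5 and the latest at E19.5, beside young adults of 10 weeks and old adults, given as 14 months in the sample labels although the study's methods state a lower age. Each stage from E12.5 on had a female, a male and a mixed sample, whereas the samples of E10.5 and E11.5 were all mixed. Levels are log2 intensities after robust multi-array averaging (RMA), a scale on which 1 unit is a 2-fold difference, and a gene was taken as expressed where its mean passed 5 in at least 1 stage. Of the 19 probe sets, 16 passed this limit.

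LIN28A and LIN28B are RNA-binding proteins that hold back maturation of the let-7 microRNAs, which are scarce in early embryos and abundant in differentiated tissue. Let-7 in turn binds the transcripts of several members: Hmga2, which encodes an architectural chromatin protein that bends AT-rich DNA, Trim71, which encodes a translational repressor and ubiquitin ligase, and the Igf2bp genes, whose proteins bind Igf2 and other mRNAs and govern their stability and translation. The mature let-7 sequences of RefSeq (GRCm38.p6) are shown because the seed, bases 2 to 8 in capitals, is the part by which such targets are recognised, and 10 of the 11 listed family names shared it. It is the same in the 5 shown. The microRNAs themselves were not analysed here.
let-7a-5p: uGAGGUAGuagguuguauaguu
let-7b-5p: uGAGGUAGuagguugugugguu
let-7d-5p: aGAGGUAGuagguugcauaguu
let-7i-5p: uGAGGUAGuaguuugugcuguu
miR-98-5p: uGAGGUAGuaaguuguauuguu

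The tissue carried its defining markers throughout. The mean level of 9 cardiomyocyte markers lay between 10.5 and 11.4 on every array, and that of 9 liver markers between 2.94 and 3.69, which bears on the labels because their extraction text names another organ than heart. The level of 18 hybridization control probe sets lay between 9.68 and 10.3 at E10.5 and between 12.0 and 12.4 in young adults. In old adults it was lower again, at 11.2 to 11.6, so this technical measure moved with stage but did not rise to the end. The young adult female array was the lowest of its 3 for the leading probe sets of Hmga2, Igf2bp2, Igf2bp3 and Trim71. Differences are given as measured, with nothing subtracted. The median difference of all probe sets was -0.19 between E10.5 and young adult in the deposited values, -0.05 after a further quantile normalization and -0.71 after centring on expressed probe sets.

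To find which members separated embryonic from mature hearts, each stage was compared with young adult. Of the 7 genes, 5 were higher at E10.5 by at least 1 probe set: Hmga2, Igf2bp1, Igf2bp2, Igf2bp3 and Trim71. A probe set was called differentially expressed at an adjusted p below 1e-05 in limma, a log2 fold change above 2 in either direction and expression in at least 1 stage. A gene was counted where any of its probe sets was called, whereas the background shares are of probe sets. At E10.5, 12 of the 19 member probe sets were called higher, where 4.43% of all probe sets were, and none was called lower. The number fell to 11 at E11.5 (4 genes, background 3.56%), 10 at E12.5 (4 genes, 3.36%), 6 at E13.5 (4 genes, 2.78%) and 6 at E14.5 (4 genes, 2.65%). It was 5 at E15.5, E16.5 and E17.5 (3 genes each, backgrounds 2.45%, 2.21% and 1.52%) and 3 at E18.5 and E19.5 (2 genes each, 1.45% and 0.818%). Trim71 was thus called at E10.5 alone, Igf2bp1 to E14.5, Hmga2 to E17.5, and Igf2bp2 and Igf2bp3 on all 10 embryonic days. Over the leading probe set of each gene, the one with the highest mean over all arrays, the median difference at E10.5 was 2.16, against -0.21 over 1 probe set for each of 20701 genes. By leading probe set Igf2bp1 was not called at E10.5, and 5.14% of the 20701 genes were called higher. All 12 probe sets called at E10.5 had young adult means under 5, so each fold, and each share of a fall given for these genes, is taken against a dim signal and is not an exact ratio of transcript amounts.

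**Figure D1:**
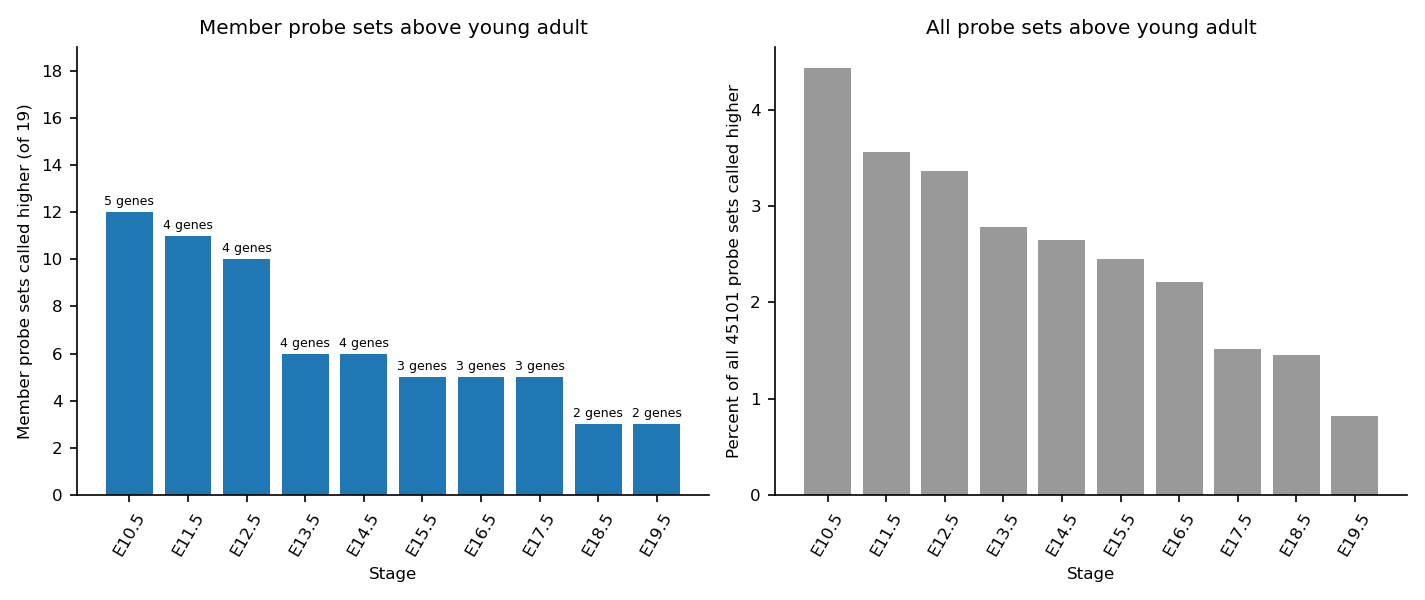
Left, number of the 19 member probe sets called higher than young adult at each embryonic day, with the number of genes above each bar. Right, percent of all 45101 probe sets called higher in the same comparison. Member calls fell from 12 to 3 while the background fell from 4.43% to 0.818%.

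Lin28a and Lin28b, the let-7 antagonists that give the group its name, were not expressed above the limit at any stage. The Lin28a probe set (1437752_at) read 2.59, 2.65 and 2.54 at E10.5, 2.29, 2.26 and 2.36 at E19.5 and 1.93, 2.48 and 2.53 for young adult. The Lin28b probe set (1430803_at) read 2.37, 2.29 and 2.59 at E10.5, 2.07, 2.05 and 2.09 at E19.5 and 2.11, 2.25 and 1.71 for young adult. In both cases the E10.5 arrays were higher than those of young adult, by less than 1 unit. The difference was 0.28 (SE 0.15, adjusted p = 0.1) for Lin28a and 0.39 (SE 0.14, adjusted p = 0.015) for Lin28b. Lin28b therefore passed an adjusted p of 0.05 alone, a limit that 27.1% of all probe sets passed in that direction, but neither gene met the expression limit. Each gene was read by a single probe set, and a level this low does not show that the transcript was absent.

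Trim71 was above the expression limit at E10.5 alone and fell at once. Its probe set (1453599_at) read 6.63, 6.36 and 6.08 at E10.5. The E11.5 arrays read 5.16, 4.81 and 4.90, those of E12.5 read 4.14, 4.12 and 4.19 and those of young adult 4.29, 4.57 and 3.72. All E10.5 arrays stood above all E11.5 arrays, which stood above all of E12.5. Its difference from young adult at E10.5 was 2.16 (SE 0.21, adjusted p = 4e-10), a 4.48-fold higher level. This call was lost without the young adult female array (1.93), after a further quantile normalization (1.94) and after centring on expressed probe sets (1.64), where the difference dropped below the limit of 2. It was also lost by its adjusted p of 5.3e-05 when only the arrays of the 2 stages were fitted, and with the hybridization control level as a covariate the difference was 2.89. From E11.5 on its stage means lay below 5, and at E19.5 it read 3.59, 3.81 and 4.26, overlapping the adult arrays. The step from E10.5 to E11.5 alone measured -1.40 (SE 0.21, adjusted p = 0.00027), or 64.7% of the whole fall to young adult. The 250 bases before the RefSeq start of Trim71 (chr9:114564370-114564619, minus strand, GRCm38.p6) are shown as a description of sequence, as for the other members below. The part of these sequences in the falls was not tested. Capitals mark a GC box, an E-box, a CCAAT box or a TATA box, each searched on both strands. The GC box was spelled GGGCGG. The E-box was spelled CACGTG. The TATA box was spelled TATAAA and the CCAAT box by its own letters, and no string holds another. The GC box occurred in 32.7%, the CCAAT box in 33.8%, the E-box in 6.02% and the TATA box in 12.4% of 32851 such windows over all genes.
Trim71: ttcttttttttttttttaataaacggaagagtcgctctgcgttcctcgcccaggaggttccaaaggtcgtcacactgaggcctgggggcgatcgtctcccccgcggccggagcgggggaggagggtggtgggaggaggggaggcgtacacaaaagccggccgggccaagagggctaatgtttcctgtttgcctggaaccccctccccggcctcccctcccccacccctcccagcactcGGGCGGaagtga

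Hmga2 fell throughout embryonic life, with a lower mean on each successive day. Its leading probe set (1422851_at) read 9.80, 9.70 and 9.82 at E10.5, 8.01, 8.04 and 7.56 at E13.5, from 5.94 to 6.10 at E16.5, 5.29, 4.85 and 5.00 at E19.5 and 3.83, 4.26 and 2.60 for young adult. None of these 5 groups of arrays overlapped. The difference from young adult was 6.21 at E10.5 (SE 0.23, adjusted p = 4.9e-20), a 73.9-fold higher level, and 1.48 at E19.5 (SE 0.23, adjusted p = 7.9e-06), below the fold limit. Without the young adult female array these were 5.73 and 1.00. The difference between E10.5 and E19.5 was 4.73 (SE 0.23, adjusted p = 2.6e-16), 26.5-fold, so most of the fall lay before birth: 30.6% was complete at E13.5 and 76.2% at E19.5, with a range of 72.1% to 82.6% when any 1 array was left out. The probe set 1450781_at gave values close to these, with a difference of 6.60 at E10.5 and 1.91 at E19.5. Another, 1450780_s_at, differed by 3.66 at E10.5 and 0.15 at E19.5. The last, 1446196_at, remained under the expression limit, at 4.45 at E10.5 and 3.07 in young adults. The promoter window of Hmga2 (chr10:120476470-120476719, minus strand, GRCm38.p6) held 1 GC box and none of the other strings, with a GC content of 56.4% and 8 CpG.
Hmga2: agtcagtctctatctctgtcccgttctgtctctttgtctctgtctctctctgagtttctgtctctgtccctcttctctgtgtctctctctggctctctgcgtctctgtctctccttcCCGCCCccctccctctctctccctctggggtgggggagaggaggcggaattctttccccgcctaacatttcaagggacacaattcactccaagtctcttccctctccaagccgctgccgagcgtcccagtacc

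Igf2bp1 and its relatives carry the same RNA-binding domains, but their probe sets did not all follow one course. Most of the fall of Igf2bp1 lay before birth in its 3 called probe sets, but not in its leading one. Of its 4 probe sets, 3 were called at E10.5, with differences from young adult of 4.04 (1449210_at, SE 0.16, adjusted p = 1.5e-19), 3.86 (1418761_at) and, for 1455223_at, a 16.0-fold higher level (adjusted p = 3.8e-15). With the hybridization control level as a covariate the differences were 3.88 for 1449210_at, 2.94 for 1418761_at and 2.68 for 1455223_at, all still called. The probe set 1449210_at, named here for its difference after its values were seen, read 7.70, 7.61 and 7.21 at E10.5, 6.53, 6.47 and 6.11 at E13.5, 4.82, 4.83 and 4.83 at E19.5 and 3.34, 3.30 and 3.76 for young adult. These 4 stages did not overlap. It stood 1.36 above young adult at E19.5 (SE 0.16, adjusted p = 4.6e-08), below the fold limit, with 66.3% of its fall complete. The leading probe set by mean level, 1459825_x_at, behaved otherwise. It read 8.45, 7.78 and 7.91 at E10.5, 7.34, 7.46 and 8.23 at E19.5 and 6.97, 6.64 and 7.48 for young adult, a difference at E10.5 of 1.02 (SE 0.22, adjusted p = 0.00019). The suffix x_at marks a probe set whose probes can also bind other transcripts.

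The leading probe sets of Igf2bp3 and Igf2bp2 stayed high until the last embryonic day and were low in both adult groups. For Igf2bp3 the leading probe set (1422610_s_at) read 9.33, 9.33 and 9.45 at E10.5, 8.56, 8.67 and 8.52 at E13.5, 7.88, 7.54 and 7.63 at E19.5 and 3.45, 3.53 and 3.27 for young adult. It was lower on each successive embryonic day, by 1.69 in all between E10.5 and E19.5 (SE 0.12, adjusted p = 3.2e-12), and its largest gap lay between E19.5 and young adult, at 4.26 (SE 0.12, adjusted p = 1.4e-21), 19.2-fold. At E10.5 it was 5.95 above young adult (SE 0.12, adjusted p = 5.8e-26), 61.8-fold. Only 28.3% of its fall was complete at E19.5. For Igf2bp2 the leading probe set (1437103_at) read 9.07, 8.94 and 9.62 at E10.5, 9.10, 9.30 and 9.27 at E13.5, 7.90, 7.31 and 8.08 at E19.5 and 4.52, 4.51 and 3.38 for young adult. Its arrays of E10.5 and E13.5 overlapped, and those of E19.5 stood apart from both and from the young adult ones. The difference from young adult was 5.08 at E10.5 (SE 0.25, adjusted p = 3e-17), 33.8-fold, and 3.62 at E19.5 (SE 0.25, adjusted p = 6.1e-13), 12.3-fold, and 28.6% of the fall was complete at E19.5. With the hybridization control level as a covariate the E10.5 difference was 5.91. The other Igf2bp2 probe set, 1439764_s_at, gave 5.95 and 4.24 and a share of 28.7%. The interval between E19.5 and 10 weeks was not sampled, so the data do not place this part of the fall within it. Whether fewer cells made the transcript or each cell held less of it cannot be told apart in whole hearts.

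The Igf2bp3 probe sets disagreed in timing. Both 1422611_s_at and 1450687_at were called at E10.5, with differences of 3.55 and 3.28, but not at E19.5, where they measured 0.52 and 0.40. Their fall was 85.5% and 87.8% complete at E19.5, against the 28.3% of the leading probe set. On the 3 arrays of E10.5 the first of them read 7.52, 7.71 and 6.18 and the second 6.07, 6.25 and 5.28. Replicate 3 was lowest in both and had the highest control level of its stage, 10.3 against 9.68 and 9.68. It was also lowest for the called Igf2bp1 probe sets, for Trim71 and for Hmga2 1450780_s_at. It was not lowest for the leading probe sets of Hmga2, Igf2bp2 and Igf2bp3. With the control level as a covariate the E10.5 differences of 1422611_s_at and 1450687_at were no longer called in limma. They became 2.16 (adjusted p = 0.0059) and 2.39 (adjusted p = 0.00022). The leading Igf2bp3 probe set gave 5.99 (adjusted p = 2e-17). The remaining probe sets, 1433732_x_at, 1453957_a_at and 1433731_at, were higher at E10.5 by 1.83, 1.94 and 0.77 and were not called. The deposited file does not say which transcript ends each of them reads. The promoter windows of Igf2bp2 and Igf2bp3 differed in composition and in place. The Igf2bp2 window lay just outside the RefSeq span of its gene (22059009 to 22163299). The Igf2bp3 window lay inside the span of its gene (49085218 to 49215469), so these are not windows of one kind. That of Igf2bp2 (chr16:22163300-22163549, minus strand, GRCm38.p6) had a GC content of 77.2%, 40 CpG and 2 GC boxes, and 98.7% of all windows held fewer CpG. That of Igf2bp3 (chr6:49214955-49215204, minus strand) had a GC content of 60.4%, 21 CpG, 1 CCAAT box and 1 E-box, with no GC box. The window of Lin28b, a gene under the expression limit, also lay inside its gene span and held 1 E-box and 1 CCAAT box. Such matches describe the letters and name no bound factor.
Igf2bp2: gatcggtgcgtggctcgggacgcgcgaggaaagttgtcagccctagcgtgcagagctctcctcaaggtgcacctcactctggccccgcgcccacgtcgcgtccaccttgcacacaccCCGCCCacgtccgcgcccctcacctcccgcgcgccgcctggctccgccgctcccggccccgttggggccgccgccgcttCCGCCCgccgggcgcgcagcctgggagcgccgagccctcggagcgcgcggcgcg
Igf2bp3: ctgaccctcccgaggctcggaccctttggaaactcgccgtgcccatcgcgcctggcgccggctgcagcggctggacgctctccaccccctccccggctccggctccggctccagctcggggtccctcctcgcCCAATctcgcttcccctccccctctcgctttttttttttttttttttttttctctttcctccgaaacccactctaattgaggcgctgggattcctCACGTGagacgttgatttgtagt

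**Figure D2:**
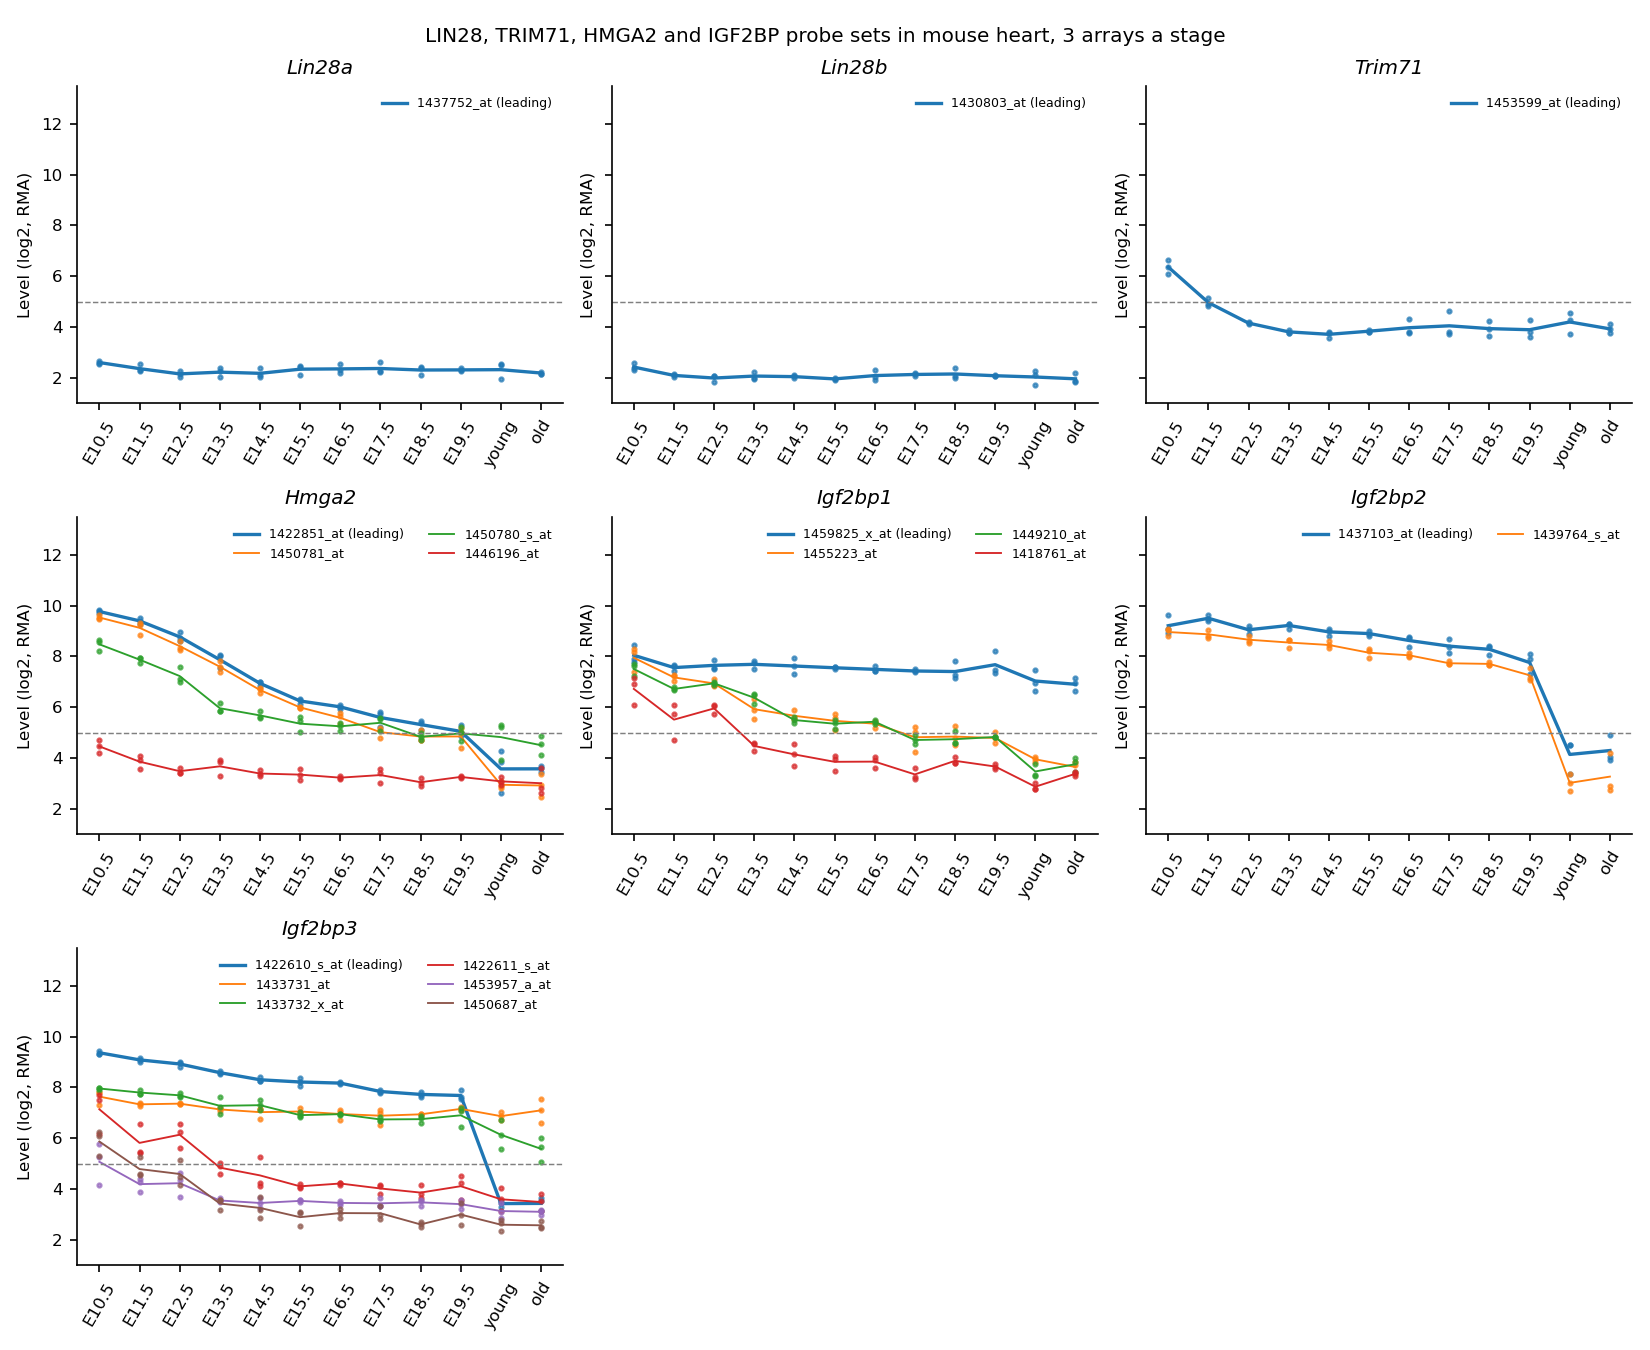
Level (log2, RMA) of each member probe set by stage, 1 panel per gene, with points for the 3 arrays, lines through stage means and a dashed line at the expression limit of 5. Lin28a and Lin28b lie flat near 2, Trim71 drops below 5 by E12.5, Hmga2 declines day by day, and the leading probe sets of Igf2bp2 and Igf2bp3 drop after E19.5.

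**Figure D3:**
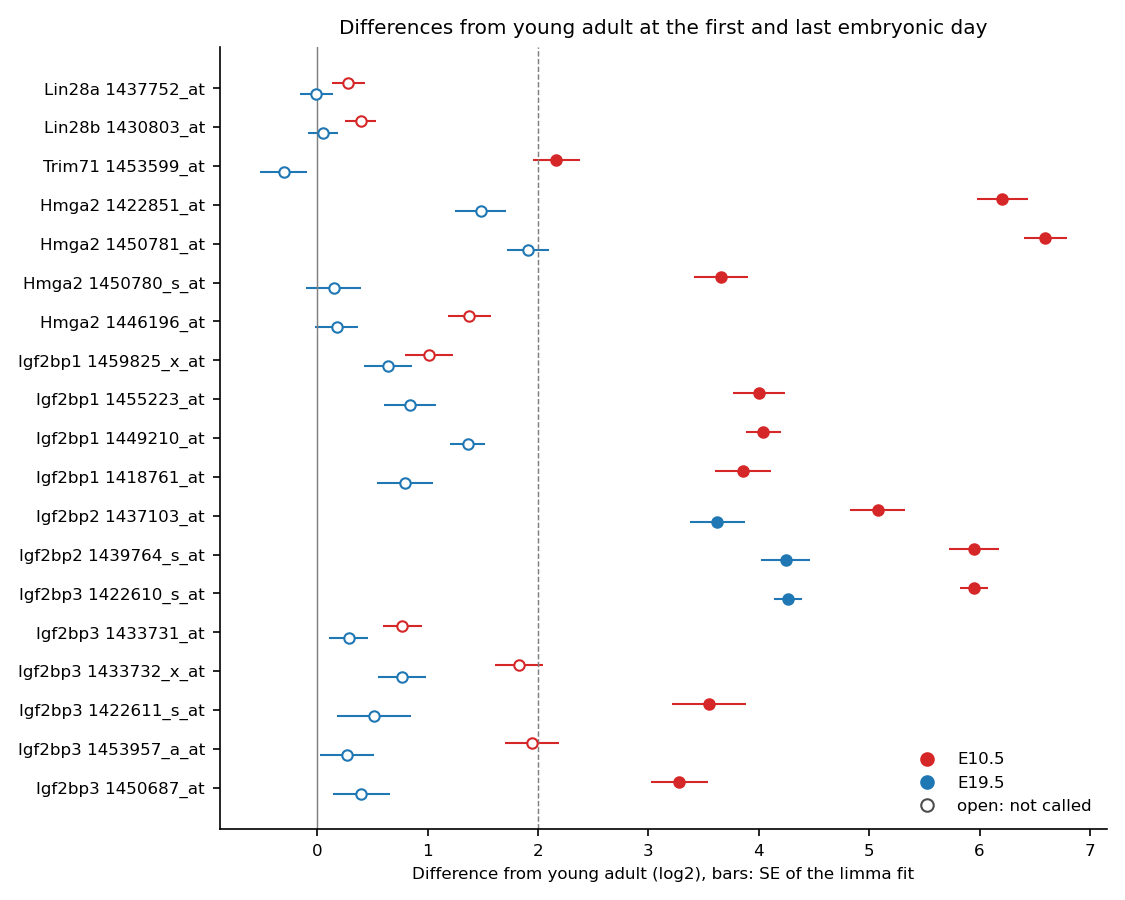
Difference from young adult (log2) at E10.5 and E19.5 for the 19 probe sets, with bars for the SE of the limma fit and filled symbols for called differences. Of the 12 called at E10.5, only the 2 of Igf2bp2 and the leading one of Igf2bp3 remained called at E19.5.

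The sizes of these falls were compared within arrays, by taking the difference between 2 leading probe sets on each array. Between E10.5 and E19.5 Hmga2 fell by 3.04 more than Igf2bp3 (SE 0.040) and by 3.28 more than Igf2bp2 (SE 0.26). Trim71 fell by 0.65 more than Hmga2 (SE 0.22) up to E13.5. Up to E19.5 the sign was the opposite, with a change of 2.26 in Trim71 minus Hmga2 (SE 0.33), Trim71 having been under the expression limit since E11.5. Between E19.5 and young adult the Hmga2 probe set started at 5.04, about the limit itself, so its further fall is not set against those of Igf2bp2 and Igf2bp3, and Trim71 had no fall left to compare. In each of these comparisons the 3 arrays of one stage lay apart from the 3 of the other, with an exact permutation p of 0.1, two-sided, the smallest that 3 arrays against 3 allow, so none could pass 0.05. Igf2bp2 and Igf2bp3 differed in their change by 0.23 (SE 0.26, exact p = 0.5) between E10.5 and E19.5 and by 0.64 (SE 0.37, exact p = 0.2) between E19.5 and young adult, with overlapping arrays. There were 12 such comparisons in all, and the differences in change up to E13.5 included 0.79 between Igf2bp2 and Igf2bp3 (SE 0.18, exact p = 0.1).

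**Figure D4:**
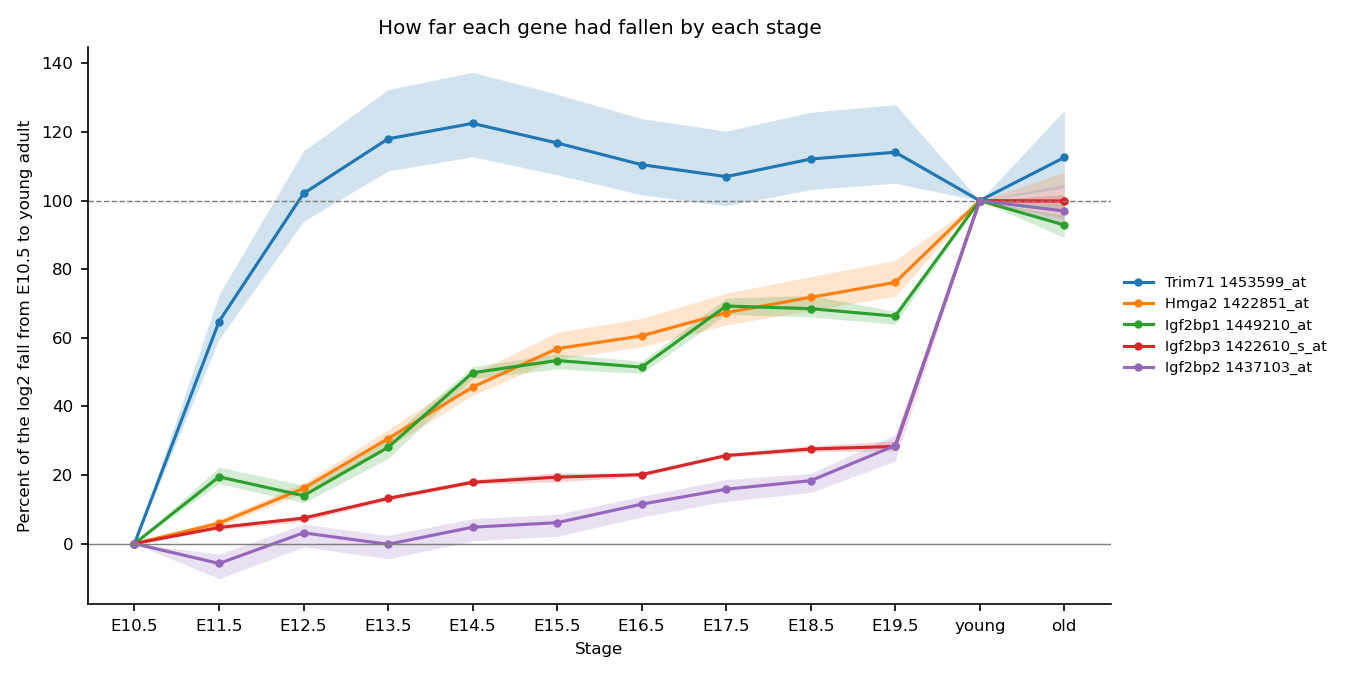
Percent of the log2 fall from E10.5 to young adult reached by each stage, for 1 probe set of each of the 5 called genes, with shading for the range when each array is left out in turn. Trim71 passes 100% at E12.5, Hmga2 and Igf2bp1 reach 76.2% and 66.3% at E19.5, and Igf2bp3 and Igf2bp2 reach 28.3% and 28.6%.

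With E19.5 as the reference, the change before birth was read on its own. At E10.5, 9 member probe sets of 4 genes (Hmga2, Igf2bp1, Igf2bp3 and Trim71) were called higher than at E19.5, against a background of 1.48%. At E11.5 there were 4 of 2 genes (0.51%), at E12.5 6 of 2 genes (0.534%) and at E13.5 2 of Hmga2 (0.195%), and none from E14.5 on. A linear slope over the 30 embryonic arrays was called as falling for 12 probe sets of Hmga2, Igf2bp1, Igf2bp2 and Igf2bp3, where 9.25% of all probe sets fell. The steepest was Hmga2 at -0.58 per day (1450781_at, SE 0.024) and -0.57 per day for its leading probe set (SE 0.022, adjusted p = 2.1e-19). The called Igf2bp1 probe sets ranged from -0.35 to -0.32 per day. The leading probe sets of Igf2bp3 and Igf2bp2 measured -0.19 (SE 0.0094, adjusted p = 3.1e-17) and -0.16 per day (SE 0.017, adjusted p = 8.7e-10). The Igf2bp2 call was lost after a further quantile normalization (adjusted p = 1.3e-05), with the title prefix of the labels as a term (adjusted p = 0.00034) and over E10.5 to E15.5 alone (adjusted p = 0.018), whereas its other probe set measured -0.18 per day (adjusted p = 1.3e-15). Trim71, whose course was not linear, had a slope of -0.18 per day (SE 0.038, adjusted p = 0.00017).

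Single days were also compared, at an adjusted p of 0.05 without a fold limit. Between E10.5 and E11.5, 6 member probe sets fell, of Igf2bp1, Igf2bp3 and Trim71, where 1.64% of all did. Between E12.5 and E13.5, 7 fell, of Igf2bp1, Igf2bp3 and Hmga2, with a background of 0.745%. The largest of these steps was -1.48 in Igf2bp1 (1418761_at, SE 0.25, adjusted p = 0.0028), and the leading Hmga2 probe set stepped by -0.90 (SE 0.23, adjusted p = 0.045). Between E13.5 and E14.5 1 probe set of Igf2bp1 fell, by 0.88 (1449210_at, adjusted p = 0.012), against 0.0377% of all. No member passed between other consecutive days, and none met the full limits in any daily step. Hybridization control levels did not overlap between E10.5 (9.68 to 10.3) and E11.5 (10.4 to 10.6). Nor did they between E12.5 (10.0 to 10.5) and E13.5 (10.6 to 11.3), whereas those of E13.5 and E14.5 overlapped. With this level as a covariate the embryonic slope of 1418761_at lost its call (limma adjusted p = 0.001). That of 1449210_at kept it (adjusted p = 5.2e-09). The cause of the daily steps was not tested.

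No difference of members by adult age or by sex passed its test with all arrays and no covariate. None was called between old and young adult in limma, where 2 probe sets in all were higher (0.00443%) and 1 lower (0.00222%). The lowest adjusted p was 0.11, for an Igf2bp3 probe set (1433732_x_at, -0.55, SE 0.22). Without the young adult female array, that probe set (-0.84, adjusted p = 0.012) and Hmga2 1450780_s_at (-0.77, adjusted p = 0.02) passed 0.05 in limma. With the hybridization control level as a covariate Igf2bp1 1455223_at did (-0.77, adjusted p = 0.038). Each stayed below the fold limit. Control levels did not overlap between young (12.0 to 12.4) and old adults (11.2 to 11.6). The leading probe set of Hmga2 averaged 3.57 in both groups and that of Igf2bp3 3.43 and 3.42. Over 9 male and female pairs from E13.5 to old adult, no member passed an adjusted p of 0.05 in limma, where 22 of all probe sets did (0.0488%). The lowest unadjusted p was 0.026, for Trim71 (0.20 higher in males, SE 0.084, adjusted p = 0.6), and it was the only one of 19 under 0.05.

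The pathway around the members was read from 5 gene lists, each gene by its leading probe set, against 5.14% of genes called higher and 2.64% called lower at E10.5 and 1.02% higher at E19.5. Of 13 genes of microRNA processing and let-7 tailing, 2 were higher at E10.5: Tut4, the terminal uridylyltransferase that LIN28A recruits to let-7 precursors (8.20 ± 0.095 against 5.83 ± 0.043, SD, n = 3; difference 2.37, adjusted p = 2.9e-08), and Ago2, the slicing Argonaute (difference 2.32, adjusted p = 2.6e-11). None of the 13 was called at E19.5.

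Of 25 further let-7 target genes, 6 were higher and 1 lower at E10.5. Mycn, a growth-promoting transcription factor, differed by 3.07 (adjusted p = 2.3e-08), Cdc25a, a cell cycle phosphatase, by 2.83 (adjusted p = 1.9e-18) and Tgfbr1, a TGF-beta receptor, by 2.62 (adjusted p = 5.9e-12), whereas Fas, a death receptor, was lower by -3.63 (adjusted p = 1.6e-16). None was called higher at E19.5. The list's median difference was 0.78 at E10.5, against -0.21 over all genes.

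The insulin-like growth factor axis, which includes the mRNA that names the IGF2BP proteins, had 5 of 16 genes higher and 1 lower at E10.5. Igf2, the fetal growth factor, measured 11.1 ± 0.53 at E10.5, 10.2 ± 0.57 at E19.5 and 7.46 ± 0.37 for young adult (SD, n = 3), a difference of 3.69 at E10.5 (adjusted p = 2.8e-13) and 2.74 at E19.5 (adjusted p = 1e-09). H19, the noncoding RNA imprinted beside it, differed by 6.46 and 5.63, and Igf2r, which clears IGF2, by 3.80 and 2.19. These 3 were the genes of the list called higher at E19.5. Irs1, an adaptor of the receptors, differed by 3.44 at E10.5 (adjusted p = 1.6e-13).

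Among 11 other high mobility group genes, 2 were higher at E10.5, Hmgb2 by 3.56 (adjusted p = 1.7e-14) and Hmgb3 by 2.73 (adjusted p = 5e-11), both chromatin proteins, and 2 were higher at E19.5. Among 28 other regulators of mRNA stability and translation, 2 were higher at E10.5 (7.14%, close to the 5.14% of all genes) and none at E19.5. The 2 were the helicase Dhx9, by 2.78 (adjusted p = 1.9e-12), and Cpeb2, which binds cytoplasmic polyadenylation elements, by 2.10 (adjusted p = 1.3e-10). The linear fall was called for 4, 7, 7, 5 and 11 genes of the 5 lists in the order given, with 11.1% of all genes falling.

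**Figure D5:**
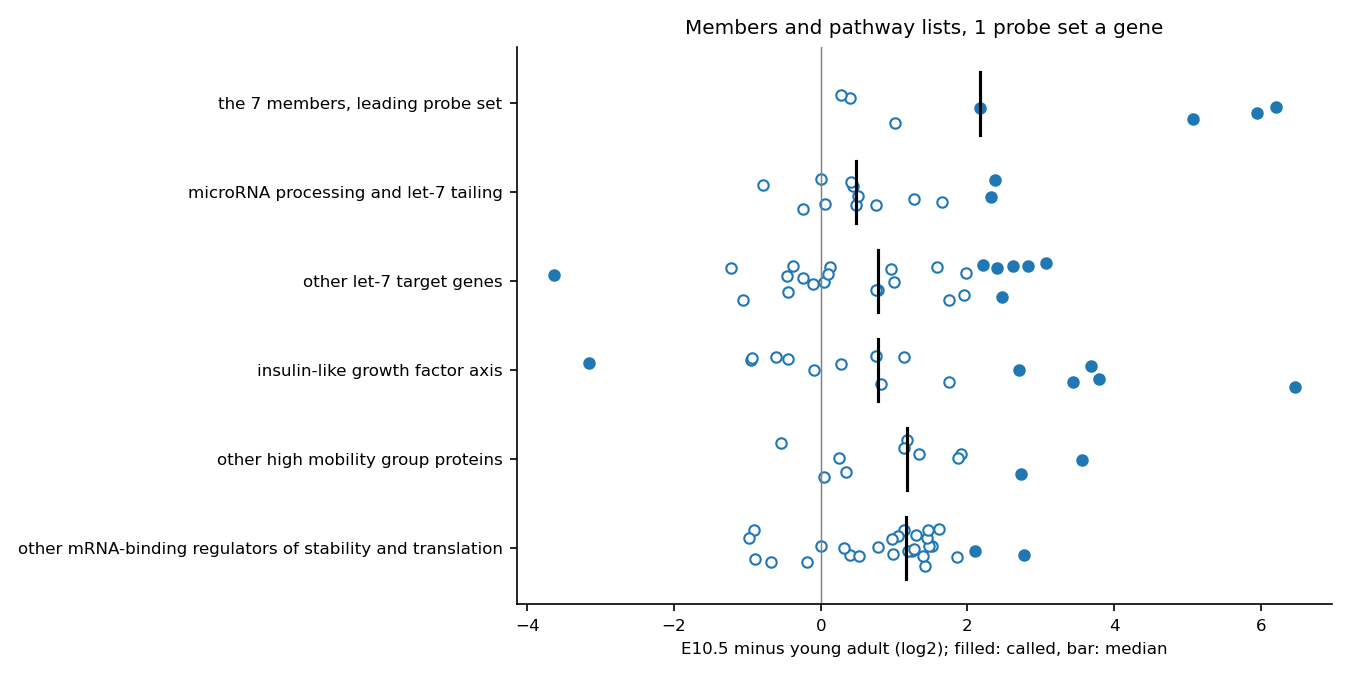
Difference between E10.5 and young adult (log2) for the 7 members and the 5 pathway lists, 1 probe set per gene, with filled points for called genes and bars at list medians. The members Hmga2, Igf2bp3 and Igf2bp2 lie at 5.08 or above, where only H19 stands among the listed genes.

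Markers of other cells and states also changed over the series, some falling as the members did and others rising. Of 12 proliferation markers, 11 were higher than young adult at E10.5 and 7 at E19.5, and their mean level lay between 8.25 and 8.62 at E10.5, 6.36 and 6.72 at E19.5 and 4.40 and 4.59 for young adult. Of 10 erythroid markers, 4 were higher at E10.5 and none at E19.5, with mean levels of 6.75 to 7.30 at E10.5 and 3.81 to 3.94 at E19.5. Of 5 adipocyte markers, 3 were lower than young adult at E10.5 and 2 at E19.5, with mean levels of 2.92 to 3.20 at E19.5 and 4.10 to 5.70 for young adult, over the interval in which the leading Igf2bp2 and Igf2bp3 probe sets dropped. The part of these lists in the members' falls was not tested. Of 11 germ cell and pluripotent cell markers none was called higher, with Pou5f1 and Nanog at 3.48 and 2.09 at E10.5. Of 7 fibroblast markers, 2 were lower than young adult at E10.5, with a list median difference of -0.26. At E19.5, 1 was higher and 1 lower, with a median of 0.82. Their mean level lay between 7.66 and 7.91 at E10.5, 9.23 and 9.59 at E19.5 and 9.05 and 9.74 in young adults. Of 7 endothelial markers none was called at either stage. Their mean level lay between 6.02 and 6.58 at E10.5 and 7.13 and 7.29 for young adult.

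Genes of most similar pattern were taken as the 3 with the highest Pearson r with each leading probe set over the 36 arrays, as a description of points that share stage and hybridization. For Igf2bp3 they were Slc38a4, an amino acid transporter (r = 0.986), and the mitotic genes Cdca8 (0.984) and Tacc3 (0.984). For Igf2bp2 they were Slc38a1, another amino acid transporter (0.986), Skp2 (0.983) and Cenpe (0.981). For Hmga2 they were Cdk4 (0.975), Cdkn1c (0.974) and Ahcy (0.973), of which the first drives and the second restrains the cell cycle. Trim71 was matched less closely, by Gldc (0.899), Hemgn (0.889) and Mylpf (0.856), and the leading probe set of Igf2bp1 least, by Gemin5 (0.799), Slc25a10 (0.756) and Exosc1 (0.754).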

How the data were processed

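Hearts of OF1 mice from 12 stages were profiled in triplicate on Affymetrix Mouse430_2 arrays. The authors processed the scans by RMA and deposited log2 intensities for 45101 probe sets and 36 arrays. Expression Console and Partek 6.6 are named in the submitters' processing notes. From these values, limma 3.58.1 (R 4.3.3) fitted 1 model with 12 stage means over all arrays, as in the study's methods, a slope per day over 30 embryonic arrays, and male minus female over 9 pairs with stage as a block, each with Benjamini-Hochberg adjustment over all probe sets. Fits were tested on simulated data. Per the methods the 3 arrays of a stage came from separate collected samples, and their number limits the precision. Calls used the study's limits for adjusted p, fold and expression. Members and lists were chosen with earlier results of these data known. All member probe sets are given. Each gene is read by its leading probe set, but the counts of member genes take any called probe set. At most 4 called genes per list are named by size of difference, and pattern matches by Pearson r. Symbols were updated by gene ID through RefSeq (GRCm38.p6), where 18342 of 20701 gene IDs matched. Promoter windows were listed for 6 members, with none for Igf2bp1. Alternatives covered filters, limits, normalization, scaling, covariates and leaving out each array.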

Additional observations from a re-analysis of the deposited data

How the results depend on the processing

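The count of member genes higher than young adult at any embryonic stage was 5 and lay between 4 and 5 when each of the 36 arrays was left out and under the other settings, Trim71 being the gene that was lost. Against E19.5 the count was 4, with 4 at each array left out. It was 2 when only the arrays of the 2 stages compared were fitted, which leaves fewer arrays to estimate the spread. The 4 genes with a falling slope and the 0 genes called for age, sex and daily steps changed by no more than 1 under any setting run. With the sex label as replicate block, which leaves out E10.5 and E11.5, 4 genes were called against young adult and 3 against E19.5. The replicate numbers were given in accession order and pair nothing. Among single probe sets, over all settings, 29 values lost their call and 25 gained one, while 4145 kept their status. Some of the gains came only from a looser limit for fold or adjusted p. None changed direction while called. The tally includes fits without an array of neither stage compared, where the difference itself cannot change. It also includes probe sets under the expression limit, so the number kept is not a measure of robustness. With the hybridization control level as a covariate 4 of the 12 falling slopes lost their call, 3 of Igf2bp3 and 1 of Igf2bp1. The slope of the leading Igf2bp2 probe set lost its call under 3 settings, named beside it. The cause was not tested.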
